A study of Mus musculus with 12 samples.

Results

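Symbols made of Gm and a number are provisional names for mouse gene models that have not been given a name of their own. The 108 models described here were the rows of the liver expression table with such a symbol and a mean of at least 1 RPKM (reads scaled to transcript length in kilobases and to library depth) over 12 libraries. They were drawn from 1237 Gm models among 24475 genes, of which 614 Gm models were listed at 0 in every library. The members were thus chosen by their mean level, and levels are given as a description. The study compared livers of fed mice that were wild type (WT, 6 libraries numbered 1 to 6) with livers of fed mice lacking Gcg, the gene of the glucagon precursor (Gcg KO, 6 libraries numbered 7 to 12). Its title asks how glucagon contributes to liver zonation, the division of tasks between hepatocytes near the portal and the central veins. Polyadenylated RNA was sequenced in strand-specific libraries, and the labels give no strain, sex, age or batch and do not say whether each library came from a separate animal. The p-values therefore rest on the spread between libraries, part or all of which may be technical.

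Gm symbols cover several kinds of locus. Processed pseudogenes arise when the messenger RNA of a working gene is copied back into DNA and inserted elsewhere, so they lack introns and can match their parent almost base for base. Long noncoding RNAs are transcripts without a known protein product. Other Gm models are protein-coding genes, often young duplicates within a gene family, that had not been named when an annotation was made. A short read from a near-identical copy fits both the copy and the parent gene, so the level assigned to either depends on how such reads are divided.

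RefSeq (GRCm38.p6) had an entry for 104 of the 108 members. It listed 45 as protein coding, 31 as long noncoding RNA, 27 as transcribed pseudogenes and 1 as a pseudogene. Since the table was made, 23 have received another symbol there, among them Gm6484 (Angptl8, a secreted regulator of lipoprotein lipase), Gm10094 (Sap18b), Gm608 (Usf3) and Gm11974 (Snhg15). The 4 without an entry were Gm2083, Gm14436, Gm17066 and Gm29766, and RefSeq gives Gm2083 as a former symbol of Mup13, a major urinary protein gene that has a row of its own in the table. A GENCODE M21 gene was matched to 100 members. Of these, 9 had exons that overlapped those of a named gene on the same strand and 11 on the opposite strand. Overlaps with other unnamed models were not counted.

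For 57 members a transcript aligned on its sense strand to a transcript of a named gene in the table, over at least 70% of the model's length and at 70% identity or more. Identity was taken over the best-scoring aligned segment. It was at least 99% in 22 of these pairs, between 90% and 99% in 18 and below 90% in 17. In 2 of the pairs, Gm6498 with Peli2 and Gm21992 with Rbm4, the model shares exons with the named gene on the same strand. These 2 are at least 99% identical but lie at 1 locus, so they are not separate copies. Sequences are shown for the pairs on which the results below turn, each as the 120-base stretch of the aligned coding sequence with the most differences, with the bases that differ in capitals. The model of Ass1, the urea cycle enzyme argininosuccinate synthetase, is Gm5424, a single-exon pseudogene whose stretch lies at chr10:62071476-62071595 on the plus strand of GRCm38. The stretch of Ass1 spans introns between chr2:31481154-31488630. Only 2 of the 120 bases differ.
Gm5424: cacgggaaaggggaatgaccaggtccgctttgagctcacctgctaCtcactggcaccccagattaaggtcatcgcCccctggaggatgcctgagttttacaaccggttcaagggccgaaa
Ass1: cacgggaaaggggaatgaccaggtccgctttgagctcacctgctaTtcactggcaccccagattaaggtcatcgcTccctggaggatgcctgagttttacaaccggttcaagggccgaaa

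Gm6644 is a single-exon pseudogene of Akr1b3, the aldose reductase gene, and its stretch lies at chr1:55444383-55444502 on the minus strand. The Akr1b3 stretch is spliced from chr6:34309978-34310542, and 2 bases differ.
Gm6644: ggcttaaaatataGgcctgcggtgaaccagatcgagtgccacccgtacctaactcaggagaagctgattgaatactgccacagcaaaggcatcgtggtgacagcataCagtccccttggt
Akr1b3: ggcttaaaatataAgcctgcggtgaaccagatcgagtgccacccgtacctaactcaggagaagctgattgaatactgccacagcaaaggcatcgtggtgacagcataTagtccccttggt

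Gm15772 is a pseudogene of Rpl26, which encodes a protein of the large ribosomal subunit. Its stretch lies at chr5:3236602-3236721 and that of Rpl26 at chr11:68903182-68903301, both on the plus strand, with 2 differences.
Gm15772: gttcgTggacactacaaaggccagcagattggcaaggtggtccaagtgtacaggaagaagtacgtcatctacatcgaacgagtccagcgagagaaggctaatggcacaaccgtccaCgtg
Rpl26: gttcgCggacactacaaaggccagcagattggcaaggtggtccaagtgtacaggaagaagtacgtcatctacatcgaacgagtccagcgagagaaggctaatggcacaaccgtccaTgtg

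Gm4952 is a protein-coding neighbour of Glyat, which encodes the mitochondrial enzyme glycine N-acyltransferase. Its stretch is spliced from chr19:12618426-12623715 and that of Glyat from chr19:12646403-12648114. With 29 differences in 120 bases, a short read would tell these genes apart.
Gm4952: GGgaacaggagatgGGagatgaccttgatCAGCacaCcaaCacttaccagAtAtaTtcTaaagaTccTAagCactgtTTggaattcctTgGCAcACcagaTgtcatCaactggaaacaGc
Glyat: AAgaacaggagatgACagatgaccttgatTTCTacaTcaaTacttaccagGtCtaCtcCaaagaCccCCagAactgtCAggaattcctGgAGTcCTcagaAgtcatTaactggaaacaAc

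Over the whole transcript, 23.5% of the 50-base stretches of Gm5424 occurred in no other gene's annotated transcripts. That share was 5.54% for Gm6644, 8.48% for Gm15772 and 100% for Gm4952. It was below 10% for 19 members, below 50% for 40 and at least 90% for 36. The sources used here give no read length, and 50 bases served as an example of it.

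Gcg was listed at 0 in all 12 liver libraries, so the targeted gene checked no label. Depth, estimated from the lowest steps of the values, was 11600000 to 15000000 reads in WT and 10300000 to 13700000 in Gcg KO. A level of 1 RPKM on a transcript of 1 kilobase was then worth 10.3 to 15.0 reads. The summed RPKM of 6 hepatocyte markers was 40370 to 53011 in WT and 39458 to 49532 in Gcg KO. Of these markers 1 passed, Cps1, the mitochondrial enzyme that starts the urea cycle, lower in Gcg KO (1085 ± 115 against 615 ± 78.1 RPKM, SD, n = 6; adjusted p = 2.15e-04, limma). Of 6 liver endothelium markers 1 passed, Lyve1, a hyaluronan receptor, higher in Gcg KO (3.01 ± 0.895 against 6.06 ± 1.81 RPKM, SD, n = 6; adjusted p = 0.0125, limma), and their sum was 55.7 to 73.5 RPKM in WT and 59.8 to 94.2 RPKM in Gcg KO. The part of these markers in the results was not tested. No marker of the lists for other liver cell types was at 0 in all libraries. WT 6, Gcg KO 10 and Gcg KO 12 stood apart on the first principal component of all tested genes (27.9% of the variance, 17 to 28.8 in these 3 against at most 6.99 in the other 9). Their summed neutrophil markers were 2.72 to 4.89 RPKM, against 21.8 to 94.8 RPKM in the other 9. For 6 of the 108 members these 3 libraries all lay outside the range of the other 9. The share over all tested genes was not counted, so this count does not set the members apart from other genes. Without these 3 libraries 3 members passed as higher and 4 as lower. Gm12718 and Gm17644 were lost, and Gm3776 and Gm4013 passed as lower.

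In Gcg KO livers 4 members were higher and 3 lower, which is 6.48% of the 108, against 3.87% of all 11347 genes tested (limma on log2(RPKM + 0.5), Benjamini-Hochberg adjusted p below 0.05). Among the 10186 genes with a mean of at least 1 RPKM, 4.05% passed. In one direction the background was 1.95% higher and 1.92% lower. The median log2 fold change was 0.0093 over the members and 0.014 over all tested genes. Without adjustment 18 members (16.7%) had p below 0.05, against 15.7% of all genes. The groups did not overlap for 6 members (5.56%), against 3.09% of all genes. Among 275 Riken models, which also carry provisional symbols, 9 passed (3.27%). By RefSeq type, 1 of 45 protein-coding members, 4 of 31 long noncoding RNAs and 2 of 27 transcribed pseudogenes passed.

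**Figure D1:**
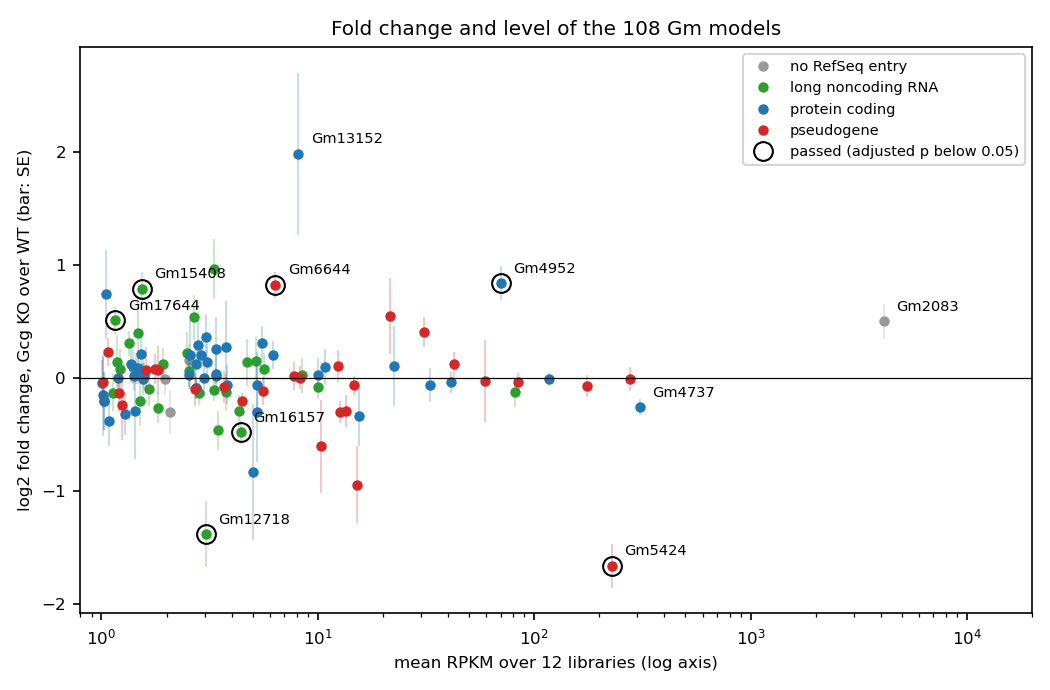
Log2 fold change of each of the 108 Gm models against its mean RPKM over 12 libraries on a log axis, coloured by RefSeq type; values above 0 are higher in Gcg KO, bars are standard errors and circles mark the 7 models that passed. The change of Gm13152, 1.98 with a standard error of 0.72, was the largest among the members but did not pass.

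Gm5424 (Entrez 432466, chromosome 10, 62071022 to 62072571), the Ass1 pseudogene, fell 3.16-fold on the log2(RPKM + 0.5) scale. Its levels were 298.4, 303.2, 293.6, 366.3, 480.8 and 331.8 RPKM in WT 1 to 6 and 107.2, 82, 75.5, 171.3, 94.2 and 141.8 RPKM in Gcg KO 7 to 12. Every Gcg KO library was below every WT library. In whole liver, fewer cells of a type and less RNA per cell cannot be told apart. The log2 fold change was -1.66 ± 0.19 (SE; adjusted p = 0.000215, limma). Ass1 itself fell from 1903 ± 198 to 724 ± 60.8 RPKM (SD, n = 6 each; log2 fold change -1.39 ± 0.08). Gm5424 stood at 15.9% to 22.1% of the Ass1 level in WT and at 11.5% to 21.5% in Gcg KO, so the ratio of the levels overlapped between the groups. The change of Gm5424 differed from that of Ass1 by -0.27 on the log2 scale, which did not pass (exact permutation test over 924 arrangements, two-sided, p = 0.173; adjusted over 50 pairs, 0.656). That test does not show that both changed alike. Reads of Ass1 and of Gm5424 could not be told apart over most of the transcript, and the sources used here do not say how they were divided. The list of 8 urea cycle genes in the table includes Ass1 itself. Of these 8, 6 fell, 0 rose and 2 did not pass, where 1.92% of all tested genes passed as lower. The median log2 fold change of the 8 was -0.74.

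**Figure D2:**
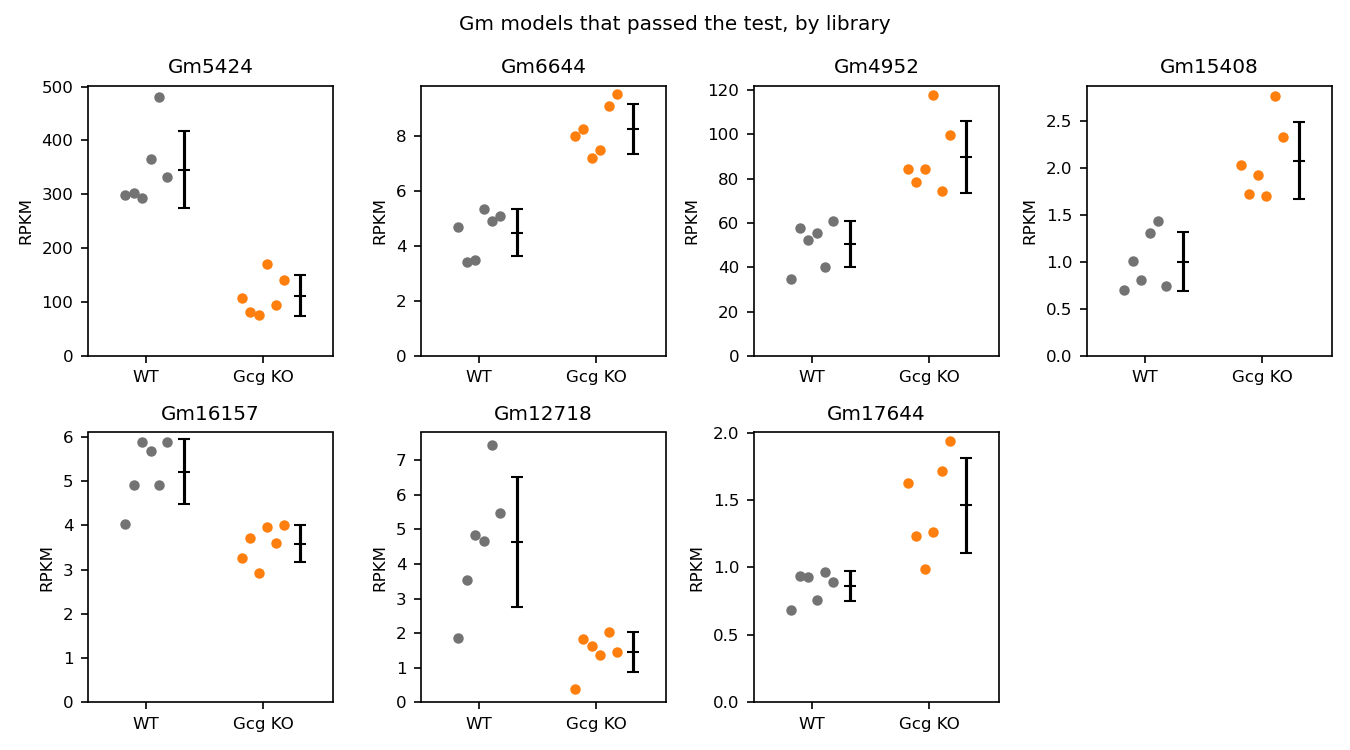
RPKM of the 7 Gm models that passed, in each WT library (grey) and each Gcg KO library (orange); black bars give each group's mean ± SD. Gm5424, Gm16157 and Gm12718 were lower in Gcg KO and the other 4 higher, and the groups overlapped only for Gm12718.

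Gm6644 (Entrez 626009, chromosome 1, 55443695 to 55445063) rose 1.77-fold. WT 1 to 6 had 4.68, 3.39, 3.48, 5.33, 4.89 and 5.10 RPKM, and Gcg KO 7 to 12 had 7.99, 8.24, 7.19, 7.46, 9.06 and 9.49 RPKM. The lowest Gcg KO library lay above the highest WT library (log2 fold change 0.82 ± 0.11 SE, adjusted p = 0.000911, limma). The parent gene Akr1b3, an enzyme that reduces glucose to sorbitol, was listed at a mean of only 0.0043 RPKM. At the estimated depth, its values were worth 0.0417 to 0.0991 of a read in each library. The values of Akr1b3 lay between 0.0667% and 0.0690% of those of Gm6644 in all 12 libraries. The rise of the Gm6644 row therefore cannot be assigned to the pseudogene rather than to Akr1b3.

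Gm4952 (Entrez 240549, chromosome 19, 12599984 to 12627616) rose 1.79-fold, and its sequence is distinct from that of its relative. Its levels were 34.9, 57.8, 52.5, 55.7, 40.2 and 60.9 RPKM in WT 1 to 6 and 84.5, 78.4, 84.4, 117.7, 74.4 and 99.7 RPKM in Gcg KO 7 to 12. The groups did not overlap (log2 fold change 0.84 ± 0.15 SE, adjusted p = 0.00519, limma). Glyat, which starts 5692 bases beyond the end of Gm4952 and conjugates acyl groups to glycine, had 183 ± 22.02 in WT and 169 ± 17.6 RPKM in Gcg KO (SD, n = 6; adjusted p = 0.657). Gm4952 stood at 17.9% to 31.7% of Glyat in WT and at 44.0% to 65.9% in Gcg KO. The changes of the neighbours differed by 0.95 on the log2 scale (exact permutation test, p = 0.00216, the smallest it can give; adjusted over 50 pairs, 0.0361).

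The other 4 members that passed were long noncoding RNAs at low levels. Gm15408 (chromosome 5, 149006962 to 149012776) rose 1.73-fold. WT 1 to 6 had 0.699, 1.01, 0.810, 1.31, 1.44 and 0.741 RPKM and Gcg KO 7 to 12 had 2.03, 1.72, 1.92, 1.70, 2.77 and 2.33 RPKM, with no overlap (log2 fold change 0.79 ± 0.14 SE, adjusted p = 0.00617, limma). Its nearest named gene, Hmgb1, which encodes an abundant chromatin protein, lies 33926 bases away and had 51.7 ± 3.62 in WT and 53.5 ± 2.56 RPKM in Gcg KO (adjusted p = 0.782).

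Gm16157 (chromosome 7, 68266339 to 68276594) fell 1.40-fold. Its levels were 4.03, 4.91, 5.87, 5.67, 4.91 and 5.88 RPKM in WT 1 to 6 and 3.26, 3.72, 2.93, 3.97, 3.60 and 4.01 RPKM in Gcg KO 7 to 12. The groups did not overlap, but WT 1 and Gcg KO 12 were almost level (log2 fold change -0.48 ± 0.10 SE, adjusted p = 0.0153, limma). Gm16157 lies antisense to Fam169b and overlaps its exons. Fam169b had 6.92 ± 0.714 in WT and 5.85 ± 0.641 RPKM in Gcg KO (log2 fold change -0.22, adjusted p = 0.219). The libraries mark strand, but the sources used here do not say whether the counting used it, so reads of both genes may not have been told apart.

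Gm12718 (chromosome 4, 103382500 to 103492188) fell 2.61-fold. It had 1.87, 3.54, 4.84, 4.67, 7.45 and 5.48 RPKM in WT 1 to 6 and 0.374, 1.85, 1.64, 1.36, 2.02 and 1.45 RPKM in Gcg KO 7 to 12. WT 1 lay within the Gcg KO range, and the spread within each group was wide (log2 fold change -1.38 ± 0.29 SE, adjusted p = 0.0173, limma). Without WT 6, Gcg KO 10 and Gcg KO 12 the change was -1.34 and did not pass (adjusted p = 0.0988). Oma1, a mitochondrial protease gene 10631 bases away, had 8.56 ± 0.767 in WT and 6.996 ± 1.07 RPKM in Gcg KO (adjusted p = 0.155).

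Gm17644 (chromosome 1, 12667563 to 12673090) was the weakest of the 7. It had 0.683, 0.937, 0.927, 0.762, 0.965 and 0.896 RPKM in WT 1 to 6 and 1.62, 1.24, 0.989, 1.26, 1.71 and 1.94 RPKM in Gcg KO 7 to 12. The groups did not overlap (log2 fold change 0.51 ± 0.12 SE, adjusted p = 0.0328, limma), but the call held in only 10 of 21 alternative fits. It was lost without any 1 of WT 1 to 6, Gcg KO 7, Gcg KO 11 or Gcg KO 12 (adjusted p of 0.0504 to 0.0734), without WT 6, Gcg KO 10 and Gcg KO 12 together (0.114) and without the filter on low values (0.0545). It is also the 1 called member among the 9 whose mean reached 1 RPKM in a single group, 6 in WT and 3 in Gcg KO. For such a member the choice by level and the difference between groups are linked.

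The nearest tested gene with a name was identified for 104 members. Some of these genes overlapped their member and others lay far off, such as Slmo2, 1753565 bases from Gm6182. Acaca, the acetyl-CoA carboxylase gene that overlaps Gm11437, and Iigp1, an interferon-inducible GTPase gene near Gm4951, were the 2 neighbours that passed (1.92%). Of all tested genes 3.87% passed. Some genes, such as Etohi1 and Slmo2, were the neighbour of several members, so the 104 neighbours are not all different genes. In 0 of the 104 cases did both the member and its neighbour pass, which is no result about the members when so few of either passed. Around the called members, Col13a1 lies 91816 bases from Gm5424, Mars2 203637 bases from Gm6644 and Ncoa2 466015 bases from Gm17644. Among named noncoding RNAs, taken as a list for comparison, 19 of 24 in the table were tested. Meg3, Dleu2 and Rian fell, 0 rose and 16 did not pass, with a median log2 fold change of -0.00099. The noncoding members had a median of 0.063.

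Several members missed the threshold narrowly. Gm38416, a long noncoding RNA 7784 bases from the steroid dehydrogenase gene Hsd17b2, had 2.09 ± 0.911 in WT and 4.57 ± 1.86 RPKM in Gcg KO (SD, n = 6; adjusted p = 0.0627, limma). It was 7.59 RPKM in Gcg KO 11 and 1.03 RPKM in WT 6, and the groups overlapped. Hsd17b2 had 124 ± 13.5 and 166 ± 30.03 RPKM (adjusted p = 0.0595). Gm4737, a copy of Ahcy, the enzyme that removes S-adenosylhomocysteine, had 336 ± 24.2 in WT and 281 ± 23.1 RPKM in Gcg KO (log2 fold change -0.26, adjusted p = 0.0641). Ahcy itself had 441 ± 46.0 in WT and 393 ± 25.9 RPKM in Gcg KO (adjusted p = 0.335, limma). Only 6.31% of the 50-base stretches of Gm4737 were its own, so its difference cannot be assigned to Gm4737 rather than to Ahcy. Gm38416, chosen for mention after its values were seen, passed without WT 4 or without Gcg KO 8, and Gm4737 passed without WT 6 (adjusted p = 0.0413).

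A change that differed from that of the named relative passed in 3 of the 50 pairs that could be tested (6%), and 2 of them are described here. In both only 1 gene of the pair passed. The other 7 pairs had a named gene below 0.5 RPKM. The 50 tests were not all independent. Several pairs share Etohi1, Gm14431 and Gm8898 hold the same values, and Gvin1 kept a nearly constant ratio to Gm4070. The smallest p of the exact permutation test is 0.00216, so over 50 pairs none can pass unless at least 3 do. The passes therefore depend on each other. With 1 library left out, this test had 462 arrangements. It gave 3 pairs without any 1 of WT 1 to 5 or Gcg KO 7 and 4 without WT 6. Without any 1 of Gcg KO 8 to 12, 0 of 50 pairs passed, with a smallest adjusted p of 0.0541. A count of 0 can arise there when 1 pair loses the smallest p, so it does not show that the differences were gone. Without WT 6, Gcg KO 10 and Gcg KO 12 together the test had 126 arrangements and 0 passed, with a smallest adjusted p of 0.132. Beside Gm4952 with Glyat, the pair was Gm4951 with Iigp1.

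Gm4951 belongs with Iigp1 to the immunity-related GTPases, which interferon induces against intracellular parasites. It had 33.7 ± 6.58 in WT and 32.2 ± 6.29 RPKM in Gcg KO (SD, n = 6; log2 fold change -0.06 ± 0.15 SE), while Iigp1 rose from 71.8 ± 9.57 to 111 ± 17.1 RPKM (0.62 ± 0.11 SE). WT 2, 3 and 6 and Gcg KO 10 and 12 had the highest Gm4951 levels, 37.3 to 41.0 RPKM. The difference in change was -0.69 (exact permutation test, p = 0.00216; adjusted over 50 pairs, 0.0361). Their transcripts are 86.3% identical over 1280 aligned bases. In 3 further pairs the difference had an unadjusted p below 0.05 by the same exact permutation test and did not pass, namely Gm4956 with Gsta4 (p = 0.0152), Gm17821 with Dcaf5 (p = 0.0216) and Gm10319 with Mug2 (p = 0.0476).

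Over all alternatives the differences in change of these 2 pairs ranged from -0.76 to -0.59 for Gm4951 with Iigp1 and from 0.83 to 0.999 for Gm4952 with Glyat.

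**Figure D3:**
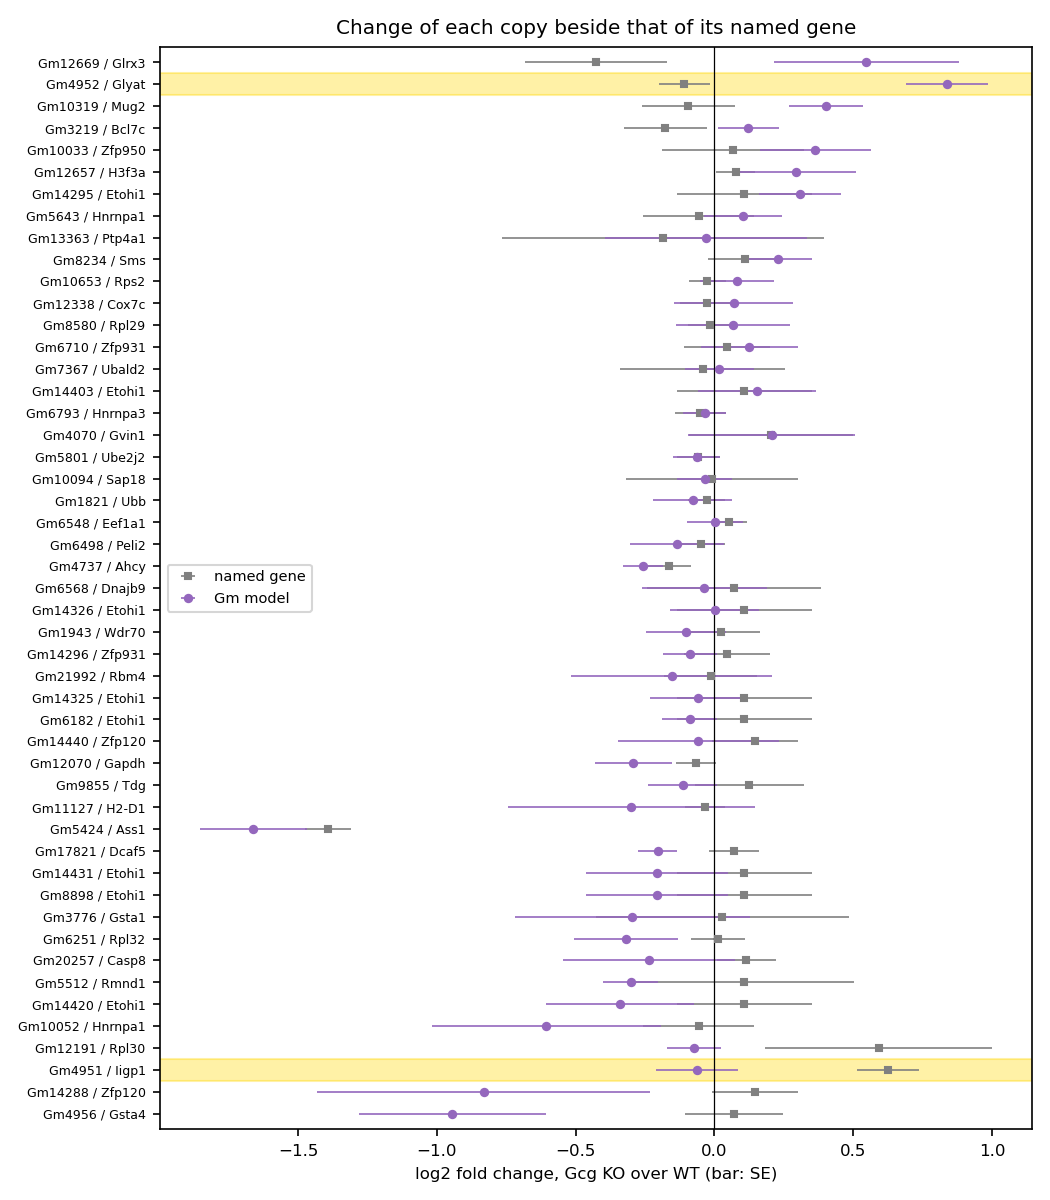
Log2 fold change (Gcg KO over WT, bar: SE) of each of 49 models (purple) and of the named gene it matches (grey), ordered by the difference between them. The 2 shaded pairs, Gm4952 with Glyat and Gm4951 with Iigp1, passed, with 1 gene of the pair changed and the other near 0.

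In many pairs the level of a model and that of its named gene stood far apart. RPKM is per kilobase, so levels of both genes can be compared, but each carries the uncertainty of shared reads. The model was listed above the named gene in 26 of the 57 pairs, at least 10-fold above in 8. Among the 22 pairs at 99% identity or more, the model was the higher in 15 and at least 10-fold higher in 5. The 22 include Gm6498 with Peli2 and Gm21992 with Rbm4, which share a locus and are not among the 15.

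Pairs with a ribosomal protein gene, which every cell transcribes, stood apart in both directions. Gm15772 was listed at 226.6 to 340.1 RPKM over the 12 libraries and Rpl26, its parent, at a mean of 0.0464 RPKM. At the estimated depth the Rpl26 values were worth 0.266 to 0.499 of a read. Gm12191 had a mean of 176 RPKM and Rpl30 one of 2.32 RPKM, with 1 mismatch between them over the aligned sequence and no 50-base stretch of Gm12191 that is its own. The opposite held for Gm10653 with Rps2 (1.77 against 501 RPKM), Gm6251 with Rpl32 (1.29 against 230 RPKM) and Gm8580 with Rpl29 (1.61 against 176 RPKM), which are 91.3%, 96.0% and 96.9% identical. It also held for Gm12338 with Cox7c, a subunit of cytochrome c oxidase (1.82 against 333 RPKM), and Gm12070 with Gapdh, the glycolytic enzyme (13.4 against 958 RPKM). The last 2 pairs are as alike in sequence as those of Gm15772 and Gm12191, at 100% and 99.9% identity.

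**Figure D4:**
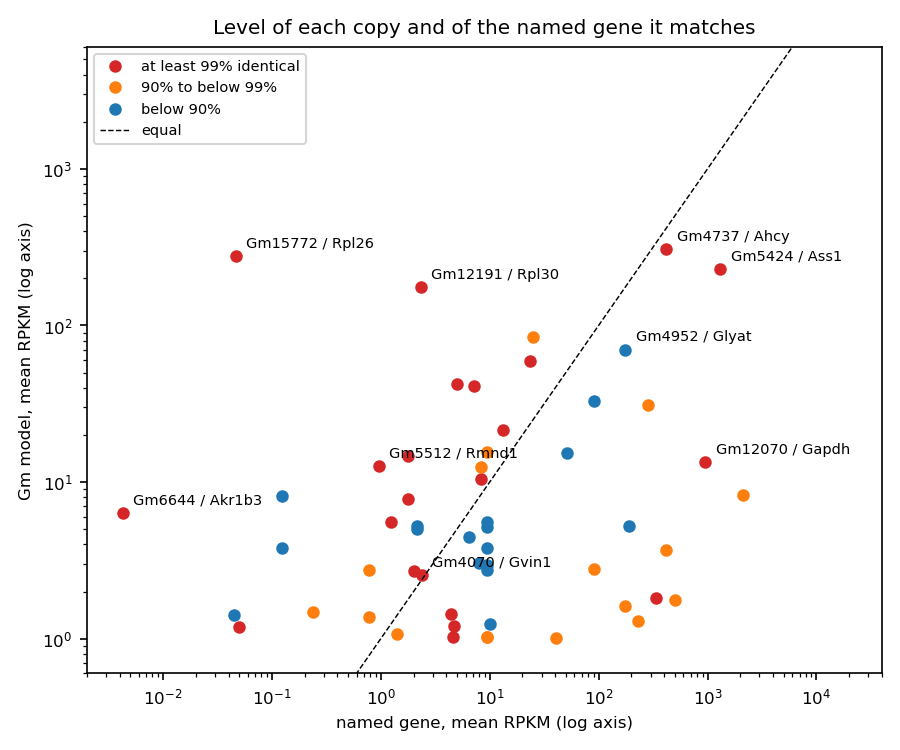
Mean RPKM over 12 libraries of 56 Gm models (vertical) against the mean RPKM of the named gene each one matches (horizontal), both on log axes, coloured by sequence identity; the dashed line marks equal levels. Gm15772 and Gm12191 lie far above the line and Gm12070 far below it although all are at least 99% identical to their named genes.

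The ratio between some rows hardly varied. For each of the 107 members above 0 in every library, the gene with the steadiest ratio was sought among the 13291 genes above 0 in every library. This search was chosen after the values were seen and is a description. The ratio varied by less than 1% (coefficient of variation, CV) for 7 members, while the lowest CV among the others was 3.52% and the median over members 11.4%. Rpl26 stood at 0.0167% of Gm15772 in every library (CV 0.0638%). Gvin1, an interferon-inducible very large GTPase gene, stood at 93.4% to 93.5% of Gm4070 (CV 0.0196%), although Gm4070 itself ranged from 0.751 RPKM in WT 2 to 4.37 RPKM in Gcg KO 12. Akr1b3 followed Gm6644 with a CV of 0.915%. Gm6182 and Gm14296 kept a CV of 0.0803%, and Gm14431 and Gm8898 had the same value in every library. Such rows are not independent measurements of 2 genes, and values below 1 read are not whole read counts.

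**Figure D5:**
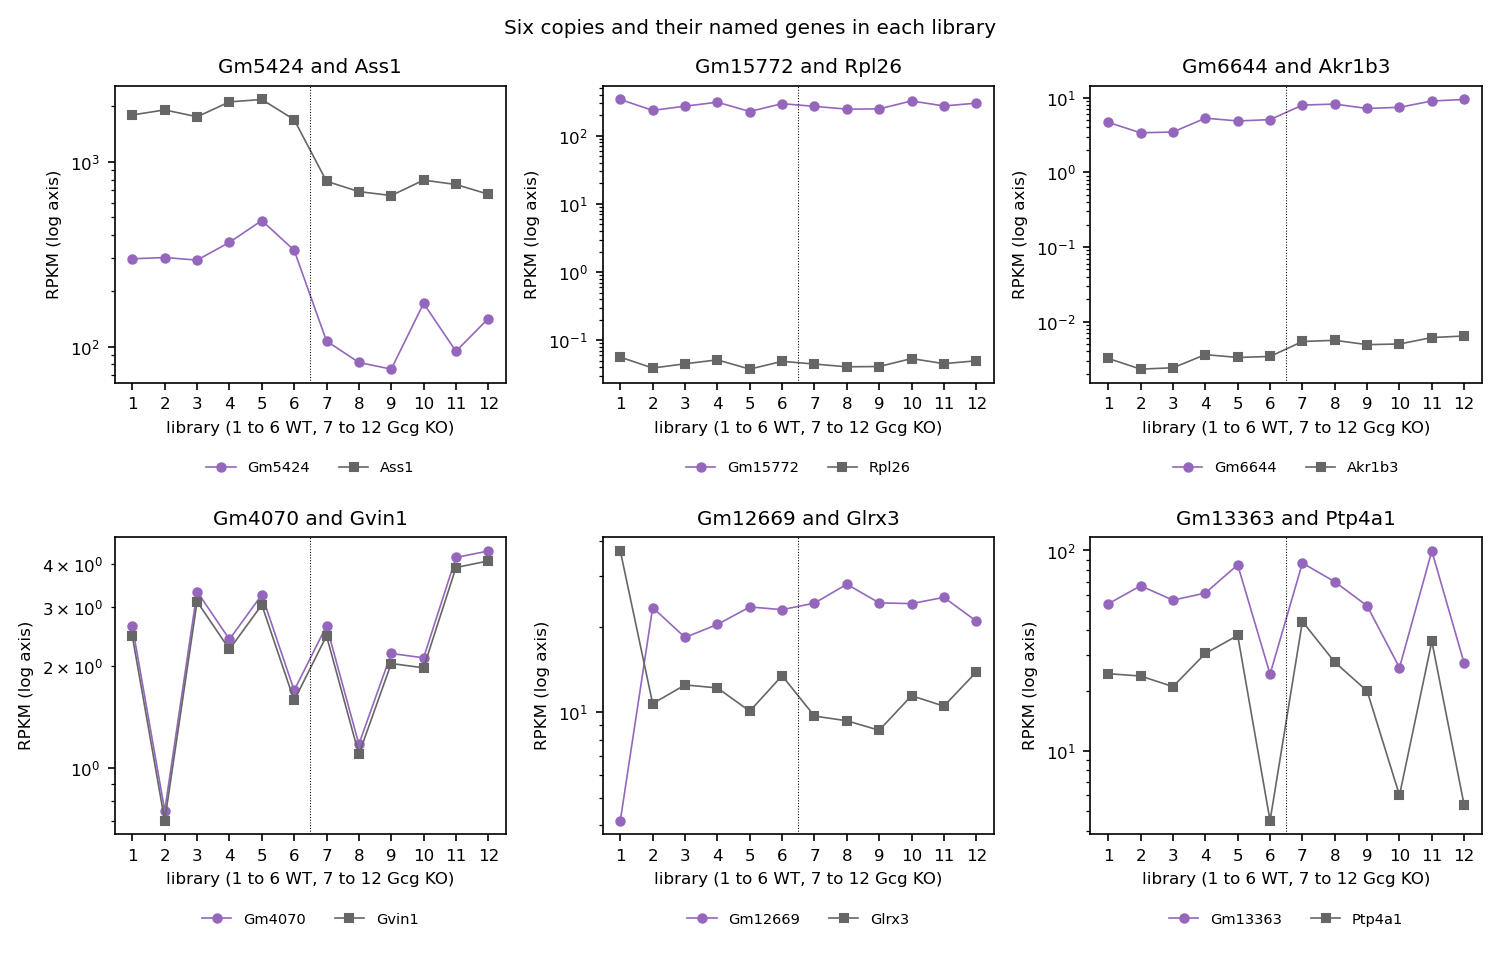
RPKM of 6 models (purple circles) and of their named genes (grey squares) in each library, WT 1 to 6 left and Gcg KO 7 to 12 right of the dotted line, on log axes that differ between panels. Rpl26 and Akr1b3 run parallel to their copies at a small part of their level, Gvin1 runs just under Gm4070, and Gm12669 and Glrx3 move in opposite directions in WT 1.

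In some pairs the order of the levels was exchanged in a single library. Gm14420 was below Etohi1 only in Gcg KO 10, at 10.5 against 12.5 RPKM. The exchange was wider for Gm12669 with Glrx3. In WT 1 the pseudogene Gm12669 had 4.15 RPKM and Glrx3, a glutaredoxin gene, 36.9 RPKM. In the other 11 libraries Gm12669 had 18.3 to 28.2 RPKM and Glrx3 8.63 to 13.8 RPKM. The difference in change of this pair, 0.97, did not pass (exact permutation test, p = 0.0584; adjusted over 50 pairs, 0.417). Gm13363 and Ptp4a1, a phosphatase gene, were low together in 3 libraries. Gm13363 had 24.2, 26.0 and 27.3 RPKM in WT 6, Gcg KO 10 and Gcg KO 12 and 52.9 to 99.4 RPKM in the other 9. Ptp4a1 had 4.49, 6.01 and 5.35 RPKM in the same 3 libraries and 19.9 to 44.2 RPKM in the others. For Gm10094 (Sap18b), at 30.02 to 47.2 RPKM, Sap18 was listed at 11.3 to 11.99 RPKM in WT 1, WT 2, Gcg KO 7 and Gcg KO 8 and at 4.36 to 5.46 RPKM in the other 8 libraries.

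By level, 6 members had at least 100 RPKM, 20 had 10 to 100, 45 had 2 to 10 and 37 had 1 to 2, with a median of 3.06 RPKM. Just inside the limit of 1 RPKM were Gm21992 (1.02), Gm6568 (1.01) and Gm20604 (1.003), and just outside it Gm4432 (0.971), Gm17296 (0.947) and Gm10509 (0.928). The members held 0.786% to 1.34% of the summed RPKM of a library, most of it in 1 row. Gm2083, the former symbol of Mup13, had a mean of 4142 RPKM, and without it the share was 0.269% to 0.368%. Major urinary proteins are secreted by the liver and carry pheromones in urine, and their genes are near-identical neighbours. Gm2083 had 4471, 3737, 3523, 2610, 3203 and 2998 RPKM in WT 1 to 6 and 4115, 6482, 5107, 3581, 5367 and 4512 RPKM in Gcg KO 7 to 12. The groups overlapped, and the log2 fold change of 0.50 ± 0.15 (SE) did not pass (adjusted p = 0.0991, limma), though it did after quantile normalization (adjusted p = 0.0395).

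Several abundant members differed between the groups by less than their spread. Gm15772 had 280 ± 44.0 in WT and 277 ± 30.6 in Gcg KO, and Gm12191 had 181 ± 20.9 and 172 ± 22.7 RPKM (SD, n = 6). Gm6793, a copy of the RNA-binding protein gene Hnrnpa3, had 85.6 ± 9.62 and 83.4 ± 6.41 RPKM. The long noncoding RNA Gm10768 had 84.6 ± 13.5 and 77.7 ± 14.1 RPKM. Gm6484 (Angptl8) ranged from 15.3 to 31.6 in WT and from 9.87 to 43.2 RPKM in Gcg KO, a wider spread than the difference of the means (adjusted p = 0.940, limma).

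The spread between libraries of a group was wide for some members. The median of the larger within-group range was 0.88 log2 units over the members and 0.56 over all tested genes. The 6 widest were Gm13152, Gm14288, Gm10052, Gm11127, Gm3776 and Gm12669. Gm13152 (Zfp982) had 2.47, 6.70, 0.244, 0, 6.17 and 7.21 RPKM in WT 1 to 6 and 15.2, 7.07, 21.7, 20.6, 3.38 and 6.66 RPKM in Gcg KO 7 to 12. It was the largest change among the members by size, 1.98 ± 0.72 (SE), and overlapped between the groups (adjusted p = 0.174, limma). Gm11127, a class I histocompatibility gene related to H2-D1, ranged from 1.77 to 13.3 in WT and from 1.95 to 8.54 RPKM in Gcg KO. Gm3776, a copy of the glutathione transferase gene Gsta1, was lowest in WT 6 (0.175 RPKM) and highest in Gcg KO 12 (4.64 RPKM). Over all libraries its change was -0.30 ± 0.42 (SE) and did not pass. Without WT 6, Gcg KO 10 and Gcg KO 12 it was -1.02 ± 0.17 (SE) and passed (adjusted p = 0.0124, limma). Gm4013, a long noncoding model named here after its values were seen, changed by -0.46 ± 0.17 over all libraries (SE; adjusted p = 0.189) and by -0.70 ± 0.15 without the same 3 (SE; adjusted p = 0.0421, limma). Gm10052, which matches Hnrnpa1 base for base, was at 1.23 RPKM in Gcg KO 9 and at 7.53 RPKM or more in the other 11 libraries.

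A family of zinc finger genes was among the members. Zinc finger proteins of this kind bind DNA, many of them to silence transposable elements, and their genes lie in clusters of recent duplicates. There were 18 members that matched Etohi1 or a gene with a Zfp symbol, or that now carry a Zfp symbol themselves. Of these, 12 lay on chromosome 2 between 175275125 and 177957386 and 3 on chromosome 4 between 146449030 and 147516064. The 12 on chromosome 2 had means of 1.02 to 15.5 RPKM, and 0% to 63.9% of their 50-base stretches were their own. Among the 18, 0 passed, where 3.87% of all tested genes did, and a set of this size cannot tell 0 from that share. Gm14431 and Gm8898 hold the same values, and Gm6182 and Gm14296 nearly so, so the 18 are not all separate measurements. The log2 fold changes ran from -0.83 (Gm14288) to 0.31 (Gm14295) on chromosome 2, and the 3 on chromosome 4, Gm13139, Gm13251 and Gm13152, had 0.27, 0.74 and 1.98. Gm14288 ranged from 0.881 to 10.1 in WT and from 0.434 to 7.33 RPKM in Gcg KO.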

How the data were processed

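The authors deposited 1 table of RPKM values for 24475 genes in 12 liver libraries, in which 0 columns were left without a sample. CASAVA 1.8.2, FastQC and the build GRCm38 appear in the submitters' processing notes. Not given in the sources used here are the aligner, the counting tool, the annotation and how reads shared by several genes were treated. The table holds no counts, so depth was estimated from its lowest steps.

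Values were analysed as log2(RPKM + 0.5), so fold changes understate those of low genes. The 11347 genes with a mean of at least 0.5 RPKM were fitted together in limma 3.58.1 under R 4.3.3, using its trend option and genotype as the only term. Tests were two-sided, and p-values were adjusted over all of these genes (Benjamini-Hochberg, threshold 0.05). On simulated data for this comparison with 11347 genes, 50 of 67 genes changed 1.5-fold and 62 of 67 changed 2-fold were recovered. Of the 185 calls 7 were false. Noise was drawn independently for each gene, and only genes above a minimum level were changed. The recovery therefore may not hold for members at low levels or with a wide spread. Copies were found by blastn 2.17.0 against GENCODE M21 transcripts of GRCm38. The difference between a model's and its named gene's log2 values was compared between groups by an exact permutation test, whose smallest p is 0.00216, adjusted over 50 pairs.

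The members and lists were chosen with earlier results of these data known. The models named in the text were those that passed, the 10 most abundant, the 6 most variable within a group, 3 on either side of 1 RPKM and the copy pairs, with the nearest named gene of each that passed. Other members are named as examples chosen after their values were seen. Of the 66 pairs of libraries, 0 had identical columns. Of the 57 copy pairs 1 is not reported here and is left out of the plots, though counted in the totals.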

Additional observations from a re-analysis of the deposited data

Results flagged for a closer look

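The groups examined were 126, each of 6 libraries for a named model or copy. In 18 of them the highest or lowest library lay far from the other 5. Chance gives about 6.3 for independent groups that were not chosen by their spread. The most variable members were chosen by it and some rows repeat, so 18 cannot be compared with 6.3. Levels in this paragraph are RPKM. Among called and abundant members the libraries far from the rest were Gm12718 in Gcg KO 7 (0.374), Gm4788 in WT 3 (131.9), Gm6793 in WT 5 (104.7) and Gm13363 in WT 6 (24.2). Among the most variable members they were Gm10052 in Gcg KO 9 (1.23), Gm3776 in WT 6 (0.175) and in Gcg KO 12 (4.64), and Gm12669 in WT 1 (4.15). Among the other copies they were Gm4956 in WT 1 (8.50), Gm8234 in Gcg KO 9 (0.740) and Gm7367 in Gcg KO 12 (10.1). In WT 4, Gm14295 was at 2.88, Gm6182 and Gm14296 were both at 2.01, and Gm14431 and Gm8898 were both at 0.449. In Gcg KO 11, Gm6182 and Gm14296 were both at 2.17. Gm6182 with Gm14296, and Gm14431 with Gm8898, hold nearly the same values in every library, so their 6 entries count 3 patterns.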

How the results depend on the processing

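No paired analysis was possible because WT libraries are numbered 1 to 6 and Gcg KO libraries 7 to 12, with no number in common. The count of members that passed was 4 higher and 3 lower. Leaving out 1 library in turn gave 3 to 5 higher and 3 to 4 lower. With members of at least 2 RPKM, 2 were higher, since Gm15408 and Gm17644 fall below that level. Among the 50 pairs, leaving out 1 library gave 0 to 4 passes, and 0 without WT 6, Gcg KO 10 and Gcg KO 12, where fewer samples limit the smallest p. Gm5424, Gm6644, Gm4952, Gm15408 and Gm16157 passed under all 21 alternatives, Gm12718 under 20 and Gm17644 under 10. No named member that had passed changed sign. At the estimated depth of 10300000 to 15000000 reads, a level near 1 RPKM on a short transcript is a value of few reads.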
